A study of Gallus gallus with 2 samples.

Results

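The nuclear genes of oxidative phosphorylation were followed in single cells of the embryonic chick cerebellum, across 4 embryonic days and across cell types recognised by marker genes. Members were all entries of the deposited gene table whose symbol began with NDUFA, NDUFB, NDUFC, NDUFS, NDUFV, SDH, UQCR, COX4, COX5, COX6, COX7, COX8 or ATP5. The rule found 77 genes of 30108, with 39 for complex I, 5 for complex II, 8 for complex III, 9 for complex IV and 16 for complex V. Among them 10 were assembly factors and the other 67 were subunits or subunit-like proteins. Every member had at least 1 UMI, and 76 had 100 or more over all cells. The exception was the complex I assembly factor NDUFAF8 with 27 UMIs, which entered the sums and the counts of stage orders but no count past a fold.

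Oxidative phosphorylation takes place in the inner mitochondrial membrane. Complexes I and II pass electrons from NADH and succinate to ubiquinone, complex III passes them to cytochrome c and complex IV to oxygen, and complex V, the ATP synthase, uses the resulting proton gradient to make ATP. Most subunits are encoded in the nucleus and imported, and a small set is encoded by mitochondrial DNA, so that complexes I, III, IV and V are built from the products of both genomes. Assembly factors help to build the complexes and do not stay in the finished enzyme.

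The cells came from cerebella dissected from wild-type Gallus gallus embryos at E6, E7, E8 and E9, pooled by the submitters, barcoded with the Evercode WT Mini kit and split into 2 sublibraries. Each stage filled 3 of 12 first-round wells. Whether separate embryos went into the wells is not in the labels. Each stage therefore counted as 1 pool, and the sublibraries and wells served as technical splits. With 1 pool per stage no test between stages was possible, the ranges below cover counting error or technical spread only, and a difference between pools cannot be told apart from a difference between stages. A gene was counted as higher or lower where its level differed by more than 1.5-fold and it had at least 100 UMIs over the compared sets, and the same count over all genes is given as the background.

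The matrix held 15190 cells and 101255521 UMIs, where a UMI stands for 1 captured transcript molecule. The stages were unequal in depth, with 9247089, 71622972, 10049537 and 10335923 UMIs from E6 to E9. Median UMIs per cell were 3025.5, 6047, 3310 and 3172 in the same order. Cell barcodes without the sublibrary part were shared by both sublibraries in 896 cases. Levels are UMI counts of a gene or list per 1000000 UMIs of the cells summed (CPM). W-linked transcripts, which only female chick cells carry, were abundant at E7 and E9 and near absent at E6 and E8, as detailed with the sex-linked members. Doublets were not called and must be taken as present.

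The members together took 855 CPM at E6 (95% Poisson interval 837 to 874), 1028 at E7 (1020 to 1035), 753 at E8 (736 to 770) and 854 (836 to 872) on the last day. Wells of E6 read 847, 851 and 867 and those of E7 971, 1037 and 1067. Wells of E8 read 742, 746 and 772 and those of E9 834, 837 and 883. The E7 wells lay above and the E8 wells below those of every other stage, while the wells of E6 and E9 overlapped. As log2 ratios the sum stood at 0.26 for E7 over E6 (counting interval 0.23 to 0.30), -0.45 for E8 over E7 (-0.48 to -0.42), 0.18 for E9 over E8 (0.14 to 0.23) and -0.003 for E9 over E6 (-0.05 to 0.04). The first 2 ratios share the E7 pool and are not independent. Among cells of 2000 to 4000 UMIs the 4 stages read 876, 1031, 780 and 860 CPM, and among cells of 4000 to 8000 UMIs 830, 1017, 749 and 851, so E7 was also the highest and E8 the lowest at matched depth.

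Markers of several cell types differed between the same pools. The 8 endothelial markers summed to 190, 236, 978 and 803 CPM from E6 to E9 and the 7 erythroid markers found to 16.4, 20.3, 77.4 and 54.9, so both were higher in the pools of E8 and E9. The 8 granule-lineage markers summed to 515, 812, 277 and 424, with the same highest and lowest stage as the members, and the 8 glutamatergic nuclear markers to 1215, 365, 321 and 299.5. Purkinje markers summed to 3613, 4465, 4476 and 3415 and radial progenitor markers to 2591, 3365, 3538 and 3206. No marker of these lists was at 0 at any stage. Their part in the members' sum was not tested over all cells, and the course within gated types is given with those types.

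**Figure D1:**
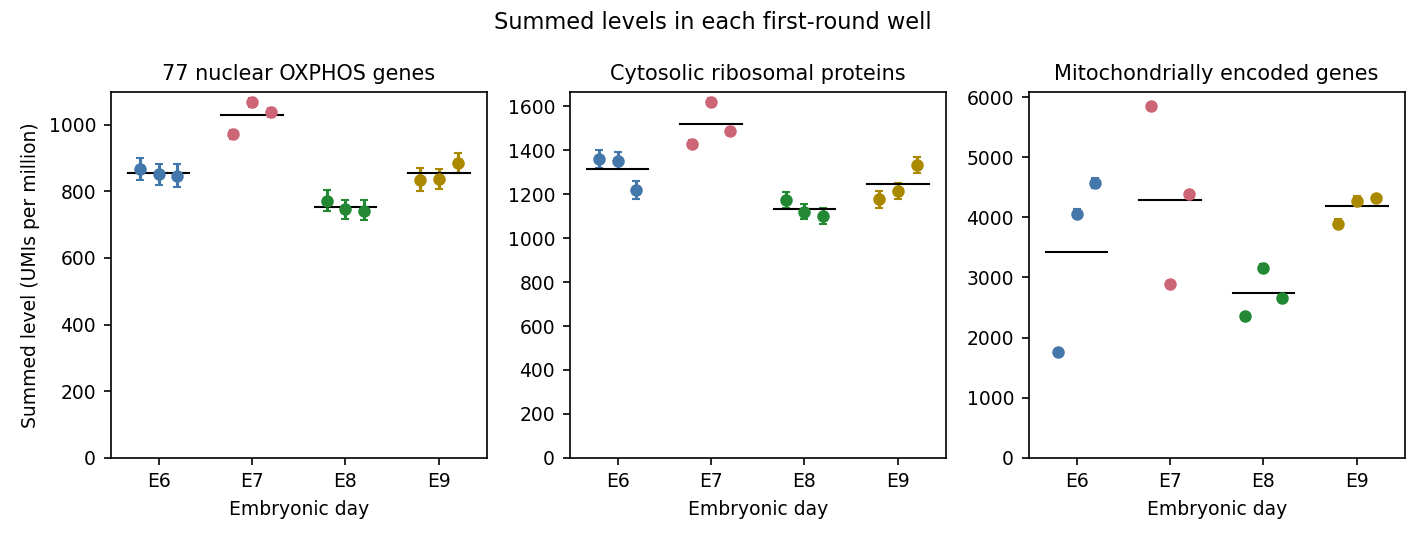
Summed levels in CPM for the 77 members, the cytosolic ribosomal protein genes and the mitochondrially encoded genes. Points are single wells with 95% Poisson intervals and black lines the whole stage; the members' E7 wells (971 to 1067) lie above and their E8 wells (742 to 772) below all others, while the mitochondrially encoded genes spread from 1767 to 4570 within E6 alone.

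Gene by gene, 25 of 74 testable members (33.8%) were higher at E7 than at E6 and 0 were lower, beside 22.4% and 7.62% of all genes. With every cell thinned to 1000 UMIs, 6 of 31 members were higher, beside 18.6% of all genes. At E8 against E7, 42 of 75 members (56.0%) were lower and 2 higher, beside 27.3% and 14.7% of all genes. The median log2 ratio over members was 0.42 and -0.64 in these comparisons, and over all genes 0.18 and -0.18. E9 against E8 had 3 of 41 members higher and 0 lower, beside 8.87% and 1.73% of all genes. They included NDUFV1, a core subunit of complex I, at 0.64, and the W-linked ATP5A1W. In wells, 29 of 74 testable members had all 3 E7 wells above all 3 E6 wells (32.5% of all genes did) and 2 had them below (15.7%). All 3 E8 wells lay below all 3 E7 wells for 51 of 75 members (37.1% of all genes) and above them for 2 (22.9%). The wells of E9 lay above those of E8 for 11 of 41 members (20.9% of all genes) and below for 2 (9.92%). They lay above those of E6 for 5 of 42 members (29.1% of all genes) and below for 6 (21.9%).

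E7 was the highest stage for 63 of 77 members (81.8%), against 36.8% of the 15361 genes with 100 UMIs, and E8 the lowest for 47 (61.0%), against 34.3%. The order E7, E6, E9, E8 from high to low held for 21 members and the order E7, E9, E6, E8 for 19. The share of all genes with each full order is not given here, so these counts are not read against a background. Subunits shared the E7 maximum in 58 of 67 cases and assembly factors in 5 of 10.

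**Figure D2:**
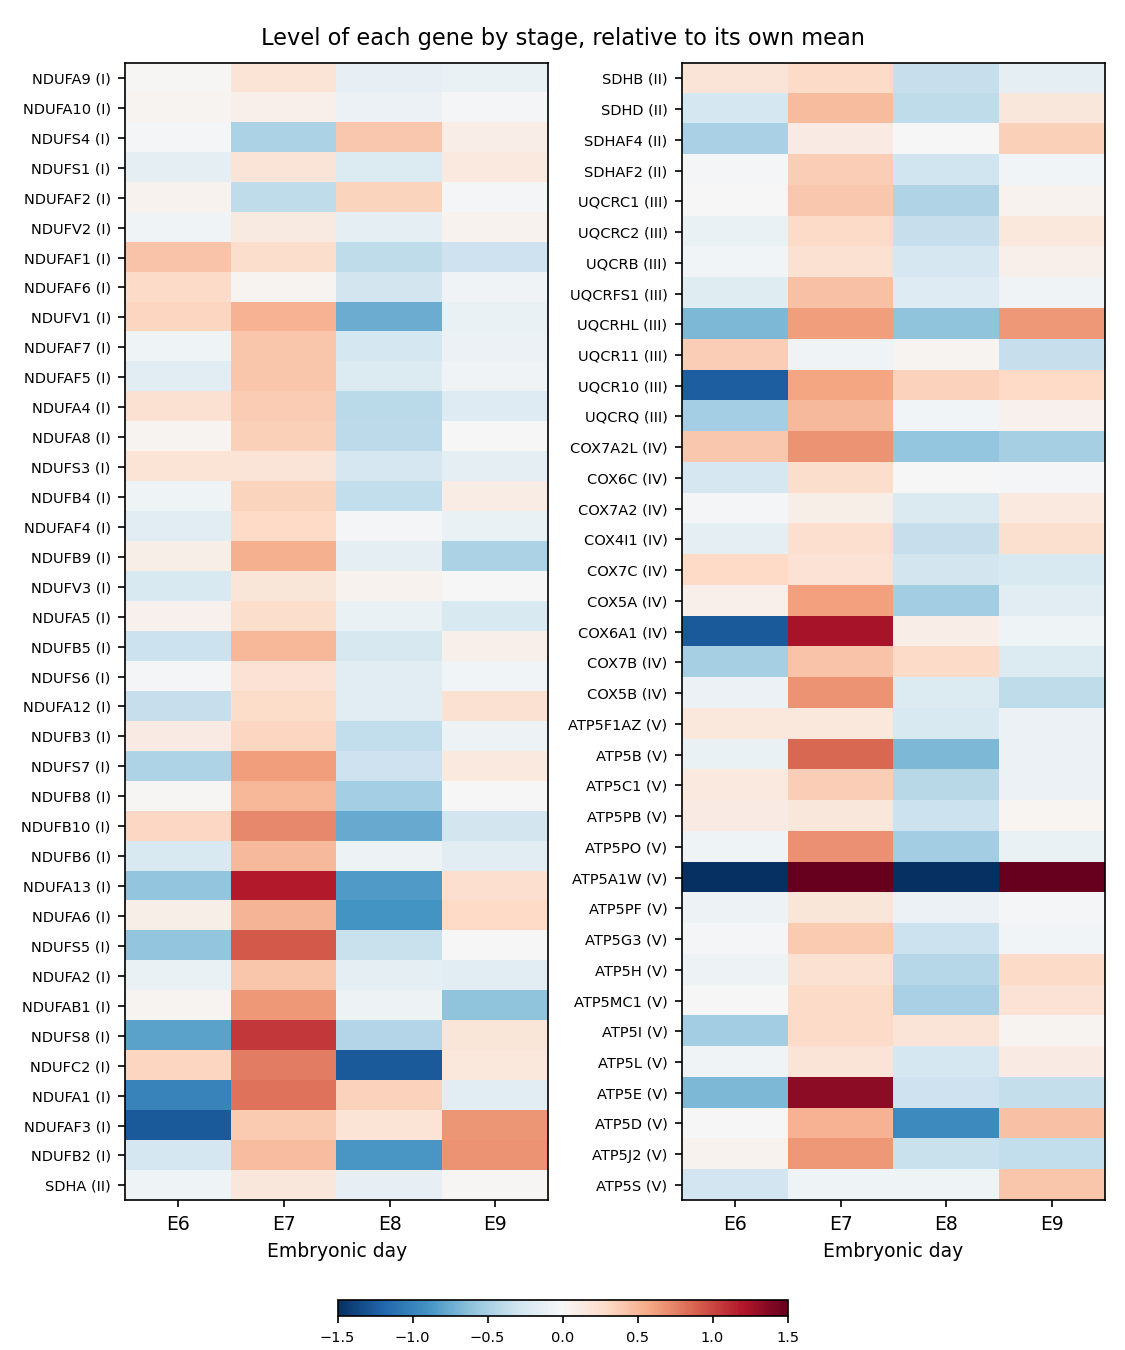
Log2 level of 75 of the members with 100 or more UMIs at E6, E7, E8 and E9, as the difference from the mean of the 4 stages, grouped by complex, with colour limited to 1.5 either way and levels under 3 UMIs raised to 3 UMIs. The E7 column is the highest for most rows; NDUFS4 and NDUFAF2 of complex I show the opposite pattern, with E7 as their lowest stage.

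Complex I, the entry point for electrons from NADH, had the flattest summed course of the 5 complexes, at 508, 561, 470 and 492 CPM from E6 to E9. Its log2 ratios were 0.14 for E7 over E6 and -0.26 for E8 over E7, with 11 of 37 testable members (29.7%) higher in the first, beside 22.4% of all genes, and 20 of 37 (54.1%) lower in the second, beside 27.3%. The sum includes the Z-linked NDUFS4 and NDUFAF2, whose course was opposite to that of most members. NDUFS4 was at 53.5, 39.1 and 71.8 and NDUFAF2 at 40.0, 29.6 and 48.6 at E6, E7 and E8. The course of complex I without these genes is not given here, so its flatness is not a trait of the complex as a whole. NDUFA9, an accessory subunit at chr1:73788118-73808496 of GRCg7b, had the most UMIs of the complex, at 70.1 (wells 68.7 to 72.7), 79.2 (72.1 to 83.2), 63.4 (58.6 to 66.1) and 64.2 (59.1 to 68.1) from E6 to E9. NDUFA10, another accessory subunit at chr7:6585215-6627337, read 71.2 (64.0 to 77), 73.0 (70.8 to 76.5), 65.6 (58.4 to 73.7) and 68.3 (65.7 to 71.3) from E6 to E9. Its wells overlapped between every pair of neighbouring stages, and its E7 over E6 ratio of 0.04 had an interval of -0.08 to 0.16 that spans 0.

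Several shorter complex I genes had larger stage differences. NDUFA13 stood at 1.19, 4.06, 0.995 and 2.13 CPM from E6 to E9, a log2 ratio of 1.77 for E7 over E6 and -2.03 for E8 over E7. It had only 11 UMIs at E6 and 10 at E8, and the sublibraries gave 4.19 and 0.95 for E7 over E6. NDUFS8, a core subunit that holds iron-sulfur clusters, read 0.541, 1.95, 0.697 and 1.06, with 1.85 for E7 over E6. These genes, like others named for their size of change in this paragraph and in those on complexes III to V, were picked after their values were seen.

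NDUFV1, the flavin-binding core subunit of complex I, depended on the well. It read 17.2, 19.8, 8.26 and 12.9 by stage, but 1 well of E6 was at 8.36 and 1 of E7 at 8.66, near the E8 wells of 7.38 to 8.81, while the highest wells of E6 and E7 reached 21.6 and 25.5. NDUFA4, which is now counted with complex IV in mammals although its name puts it in complex I, stood at 12.7, 14.1, 8.16 and 9.48.

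Complex II, the only complex of the chain without a mitochondrially encoded subunit, read 65.3, 78.8, 58.1 and 67.7 CPM from E6 to E9. Its flavoprotein SDHA was at 31.8 (wells 28.9 to 36.8), 37.2 (32.1 to 45.8), 30.4 (27.8 to 31.9) and 33.5 (32.8 to 35.1) from E6 to E9. The iron-sulfur subunit SDHB was at 20.5 (17.1 to 24.0), 22.1 (21.2 to 22.5), 14.1 (12.9 to 15.8) and 16.4 (13.1 to 19.1) from E6 to E9. For SDHB the E8 wells lay below all wells of E6 and E7, and for SDHA the wells of E6 and E7 overlapped. The membrane anchor SDHD passed the fold in both steps, with 4.43, 7.39, 4.08 and 6.0 and log2 ratios of 0.74 and -0.86.

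Complex III, which hands electrons to cytochrome c, read 85.3, 114, 69.8 and 96 CPM. Its core subunit UQCRC1 was at 38.3 (wells 36.2 to 40.3), 50.7 (42.4 to 62.6), 28.0 (26.4 to 30.7) and 40.0 (30.9 to 43.6) from E6 to E9. The partner UQCRC2 was at 27.5 (24.4 to 32.2), 35.8 (31.8 to 40.3), 23.0 (22 to 24.3) and 32.7 (27.8 to 34.9) from E6 to E9. Both had their E8 wells below all wells of the other 3 stages. The ratio of E9 over E8 was 0.46 for the whole complex, the largest of the 5 beside 0.43 for complex V, whose sum includes the W-linked ATP5A1W.

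Complex IV, cytochrome c oxidase, read 54.6, 72.8, 46.3 and 51.5 CPM. COX7A2L, a factor that joins complexes III and IV into supercomplexes, had the most UMIs here and was at 13.7 (wells 12.8 to 14.7), 16.6 (14.6 to 18.0), 6.97 (4.92 to 8.53) and 7.35 (6.71 to 8.09) from E6 to E9. Its wells at E8 and E9 lay below all wells of E6 and E7. COX6C was at 8.98 (7.80 to 9.72), 12.8 (11.1 to 14.1), 10.7 (9.83 to 11.7) and 10.4 (9.76 to 11.1) from E6 to E9, and so kept a higher level after E7 than before it. COX6A1 had the largest E7 over E6 ratio of the autosomal members, 2.49 with a counting interval of 1.55 to 3.63, resting on 9 UMIs at E6.

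For the other complex IV paralogs named by rule, COX4I1 was at 6.81, 8.89, 5.87 and 8.80 and COX7A2 at 9.73, 10.5, 8.46 and 10.9 from E6 to E9. COX6A1 read 0.973, 5.47, 2.49 and 2.23. COX4I1 is the common isoform of the subunit that binds ATP in mammals. Of the paralog pairs sought, the second members of the COX4, COX6A and COX7A pairs and any COX8 gene were not analysed here, so no isoform ratio is given.

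Complex V, the ATP synthase, had the widest summed course, at 142, 201, 109 and 146 CPM, with log2 ratios of 0.50 for E7 over E6 and -0.89 for E8 over E7. The sum includes the W-linked ATP5A1W, at 0.216, 16.3, 0.299 and 9.77 CPM from E6 to E9. The course of the complex without ATP5A1W is not given here, so its width cannot be told apart from the W transcripts of the pools. The catalytic beta subunit ATP5B at chr34:1539623-1542570 had 10.5 CPM per kb of gene span over all cells, the highest of the 72 members with a known span. It was at 18.9 (wells 18.4 to 19.3), 36.9 (35.1 to 38.2), 12.7 (9.22 to 15.1) and 19.1 (11.5 to 31.0) from E6 to E9. Its log2 ratio was 0.96 for E7 over E6 (0.74 to 1.19) and -1.53 for E8 over E7 (-1.80 to -1.28). The E9 wells spanned from below the lowest E6 well to near the E7 wells, so the E9 level of ATP5B was not well fixed.

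The small F1 subunit ATP5E read 1.08, 4.38, 1.39 and 1.35, with a log2 ratio of 2.02 for E7 over E6 (1.12 to 3.09). The other F1 subunit ATP5D read 2.49, 3.6, 1.29 and 3.39. The peripheral stalk subunit ATP5PB read 18.3, 18.9, 13.4 and 17.1, while ATP5PO of the same stalk read 9.3, 15.7, 6.77 and 9.09, with log2 ratios of 0.75 and -1.21. ATP5MC1, one of the genes for the c ring, read 3.89, 4.78, 2.79 and 4.55.

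The size of these stage differences varied with gene span, the distance from the first to the last base of a gene in the RefSeq table of GRCg7b, in which 72 members were found by symbol. Among members spanning less than 3 kb the median log2 ratio of E7 over E6 was 0.71 (27 genes), from 3 to 10 kb it was 0.41 (32 genes), from 10 to 30 kb 0.21 (6 genes) and above 30 kb -0.20 (4 genes). All genes of the same classes had medians of 0.70, 0.45, 0.23 and -0.02. For E8 over E7 the members read -0.85, -0.63, -0.32 and 0.28 and all genes -0.88, -0.65, -0.32 and 0.10. The class above 30 kb includes the Z-linked NDUFS4 and NDUFAF2. Their log2 ratios were -0.45 and -0.44 for E7 over E6 and 0.88 and 0.72 for E8 over E7. In the class under 3 kb, 16 of 27 members (59.3%) were higher at E7 than at E6, beside 56.3% of all genes of that class.

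Across members, the E7 over E6 ratio and log span had a Pearson correlation of -0.615 and a Spearman correlation of -0.595 (69 genes, which share their libraries and are not independent). Without the Z-linked members the values were -0.577 and -0.565 (64 genes). The level in CPM also went with span, at 0.717 and 0.746 (71 genes). NDUFA9 at 20379 bases and NDUFA10 at 42123 bases, the members with the most UMIs, were thus long genes, and the levels of different genes are not compared here except per kb of span.

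**Figure D3:**
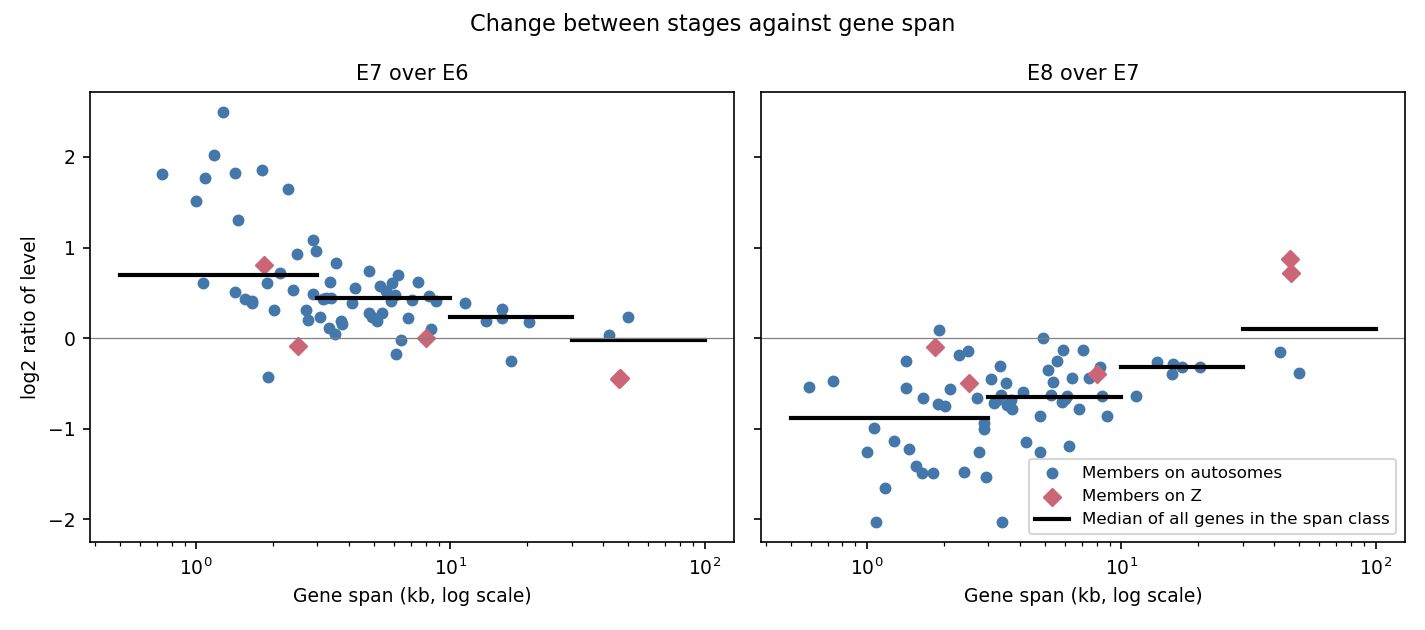
Log2 ratio of each member for E7 over E6 and for E8 over E7 against gene span in kb on a log axis, with Z-linked members as red diamonds and autosomal members in blue. The black lines are the medians of all genes in each span class. The members' own medians (0.71, 0.41, 0.21 and -0.20 for E7 over E6) lie close to them except above 30 kb, a class that includes the Z-linked NDUFS4 and NDUFAF2.

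Several other gene lists of energy metabolism and protein synthesis had the same signs. The assembly factors outside the rule and the regulators differed in sign, as given further below. The sum of the 69 cytosolic ribosomal protein genes had log2 ratios of 0.21 for E7 over E6 and -0.42 for E8 over E7, at 1316, 1518, 1132 and 1249 CPM by stage. The 12 genes of the tricarboxylic acid cycle had 0.20 and -0.52, with 1 of them higher and 1 lower in the first step and 6 lower in the second. Citrate synthase, CS, was at 8.76, 18.7, 5.77 and 7.45. The 15 glycolysis genes had 0.18 and -0.52, with 5 higher in the first step and 8 lower in the second. Of all genes 22.4% were higher and 7.62% lower in the first step, and 27.3% were lower in the second. The numbers testable in these lists are not given here, so their counts are not read against those shares. Mitochondrial ribosomal protein genes, 69 in number, had smaller ratios of 0.10 and -0.19.

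The 13 mitochondrially encoded subunits, the partners of the members in complexes I, III, IV and V, had log2 ratios of 0.33 and -0.64. Their E6 wells lay between 1767 and 4570 CPM and their E7 wells between 2888 and 5843, so these ranges overlapped widely. Nuclear and mitochondrial subunits thus had the same direction in both steps, and the wells of the members did not overlap between these stages while those of the mitochondrially encoded genes did.

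The assembly factors within the rule had log2 ratios of 0.01 for E7 over E6 and -0.13 for E8 over E7, while the subunits had 0.31 and -0.50. The 14 assembly factors of complexes III and IV outside the rule read -0.04 and -0.16. The sum of the factors within the rule includes the Z-linked NDUFAF2, at 40.0, 29.6 and 48.6 CPM at E6, E7 and E8. NDUFAF2 had the highest level of those factors at each of these stages, and its course was opposite to that of most members. The ratios without NDUFAF2 are not given here, so the contrast with the subunits is not one of assembly factors as a class. NDUFAF1, which joins intermediates of complex I, was at 25.2 (wells 24.0 to 26.5), 22.4 (20.03 to 25.6), 14.3 (12.9 to 16.0) and 15.1 (12.3 to 16.8) from E6 to E9, so that its wells at E8 and E9 lay below all wells of E6 and E7. NDUFAF5, a hydroxylase of the core subunit NDUFS7 in humans, was at 11.8, 17.5, 11.3 and 12.7. SDHAF4, which assists the flavoprotein of complex II, was at 4.22, 6.44, 5.87 and 7.55.

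From E6 to E9, the outer stages, 2 of 42 testable members were higher and 2 lower, beside 20.7% and 10.0% of all genes. The higher ones were SDHAF4, at 0.84 (0.27 to 1.43), and ATP5A1W. The E9 wells of SDHAF4 ran from 6.14 to 8.78 and its E6 wells from 2.18 to 5.16, and the sublibraries gave 0.47 and 1.33. The lower ones were COX7A2L at -0.90 (-1.33 to -0.48) and NDUFAF1 at -0.74 (-1.04 to -0.44).

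The next members in line did not pass the fold. Above 0 were SDHD at 0.44, NDUFB5 at 0.40, COX4I1 at 0.37 and ATP5H, a stalk subunit, at 0.36. Below 0 were the complex I accessory subunit NDUFB9 at -0.57, COX7C at -0.53, NDUFV1 at -0.42 and NDUFA4 at -0.42. NDUFB9 read 7.03, 9.58, 5.97 and 4.74 by stage and NDUFB5 4.97, 8.81, 5.27 and 6.58.

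Among the sex-linked members, NDUFS4 and NDUFAF2 had a stage course opposite to that of most members, and the others did not. NDUFS4 and NDUFAF2, the long Z-linked genes of complex I at chrZ:16643256-16689316 and chrZ:19521240-19567617, encode an accessory subunit and an assembly factor. NDUFS4 stood at 53.5 (wells 50.1 to 57.1), 39.1 (36.1 to 40.6), 71.8 (69.8 to 73.5) and 58.0 (52.4 to 61.7) from E6 to E9. NDUFAF2 was at 40.0 (36.0 to 42.5), 29.6 (26.0 to 32.9), 48.6 (47.9 to 49.5) and 38.0 (37.7 to 38.5) from E6 to E9. For both, the E7 wells lay below and the E8 wells above those of every other stage, and they were the only 2 members past the fold upwards at E8 against E7, at 0.88 (0.76 to 0.99) and 0.72 (0.57 to 0.86). These values cover cells of all depths with and without W transcripts. In deep cells, with E7 limited to those without W transcripts, the differences were smaller, as given below.

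ATP5F1AZ, the Z-linked gene of the alpha subunit of the ATP synthase, was at 34.4, 34.5, 26.3 and 29.0 CPM by stage, and so was highest at E7 and lowest at E8 as most members were. ATP5I, a membrane subunit of the same enzyme, was at 2.49, 4.36, 4.08 and 3.68, and COX7C, a small subunit of complex IV, at 7.14, 6.73, 4.78 and 4.93. Of the 5 Z-linked members 2 were highest at E7 and 2 lowest at E8. Its copy ATP5A1W, taken as W-linked from its symbol, had 2, 1167, 3 and 101 UMIs by stage, which is 0.216, 16.3, 0.299 and 9.77 CPM. Its wells ran from 15.8 to 16.9 at E7 and from 9.38 to 10.1 at E9. The log2 ratio of E7 over E6 was 6.24 with a counting interval of 4.38 to 9.28. The copies are alike, the way shared reads were assigned is not given in the sources used here, and their sum was 34.6, 50.8, 26.6 and 38.8.

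The 5 other W-linked genes used (SMAD7B, SPIN1L, HNRNPKL, UBAP2L2 and HINTW) together had 2.81, 160, 2.19 and 63.6 CPM from E6 to E9. Over all Z genes the median log2 ratio was -0.18 for E7 over E6 and 0.23 for E8 over E7, against 0.22 and -0.26 over autosomal genes. The 5 Z-linked members summed to 138, 114, 156 and 134 and the autosomal members to 695, 865, 578 and 687. The pools thus differed in W transcripts, and for Z-linked members the stage and the sex makeup of the pools cannot be told apart.

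Within E7, cells of at least 4000 UMIs were divided into 2181 cells with 2 or more UMIs of the 5 W genes and 3014 cells with 0. The cells with W transcripts were deeper, with median UMIs of 10641 against 6306. The summed autosomal members differed by a log2 ratio of 0.06 (counting interval 0.03 to 0.08) and the summed Z-linked members by -0.40 (-0.47 to -0.33). The single Z-linked members ran from -0.64 to -0.29 with a median of -0.46, beside a median of -0.35 over all Z genes. NDUFS4 stood at 34.6 with and 45.5 without W transcripts, NDUFAF2 at 25.2 and 34.7, ATP5F1AZ at 31.2 and 38.1, COX7C at 5.51 and 8.33, and ATP5I at 3.63 and 5.64.

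Past the fold in this split were ATP5A1W above, at 24.1 against 4.08, and COX7C and ATP5I below, of 69 testable members, beside 1.33% of all genes in each direction. The sum of ATP5A1W and ATP5F1AZ was 55.3 with and 42.2 without W transcripts.

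The same division at E9 had 90 cells with and 689 without W transcripts and agreed only in part. NDUFS4 was at 46.9 with and 55.4 without, and NDUFAF2 at 22.8 and 36.9. ATP5F1AZ was at 31.2 and 31.0 and COX7C, on 6 and 22 UMIs, at 7.21 and 4.67, so neither was clearly lower in the cells with W transcripts. The summed Z-linked members differed by -0.25, with a counting interval of -0.59 to 0.06 that spans 0, and the summed autosomal members by 0.25 (0.12 to 0.37).

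The E7 cells without W transcripts were above the E6 and E8 cells of at least 4000 UMIs in the summed members, by 0.28 and 0.48. ATP5A1W, which is not among the 5 genes of the split, was still at 4.08 CPM in these E7 cells. It was at 0.211 in the E6 and 0.503 in the E8 cells of that depth. The E7 set may therefore include cells that carry W, and it is not matched in sex to E6 or E8. Against E6, 15 of 57 members were higher and 0 lower, beside 17.9% and 7.34% of all genes. Against E8, 31 of 59 were higher and 0 lower, beside 23.9% and 12.9%. NDUFS4 was at 48.8 in the E6 and 57.2 in the E8 cells of that depth, beside 45.5 in these E7 cells. NDUFAF2 was at 35.3 and 40.3, beside 34.7. For both genes the Poisson intervals of the E6 and E7 sets overlapped, and the stage differences were smaller than over all cells.

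**Figure D4:**
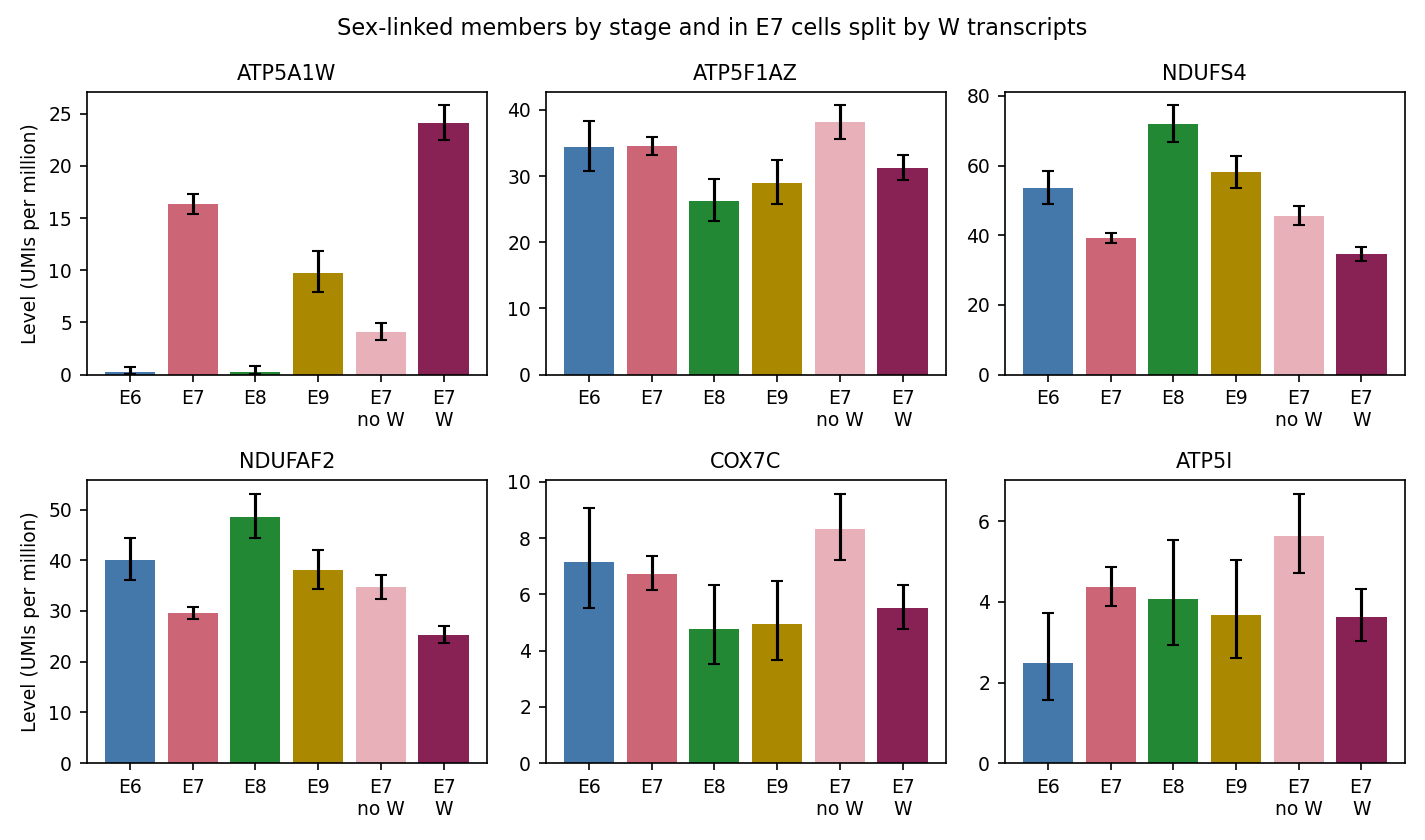
Levels in CPM of the 6 members on Z or W at each stage and in E7 cells of at least 4000 UMIs without and with W transcripts, with 95% Poisson intervals. NDUFS4 and NDUFAF2 are lowest at E7, ATP5A1W is near 0 at E6 and E8, and the 5 Z-linked members are lower in the E7 cells with W transcripts than in those without.

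The regulators of mitochondrial gene expression, 9 genes, had the opposite signs in sum. The log2 ratios were -0.35 for E7 over E6 and 0.57 for E8 over E7. These signs are those of ESRRG, an orphan nuclear receptor with by far the highest level, at 736, 522, 884 and 902 CPM. They are not a trait of the list. At E7 the levels of PPARGC1A, PPARGC1B, POLG, TFAM and TFB2M read higher than at E6, and those of NRF1, GABPA and TFB1M lower. Counting intervals for these genes are not given here, so the smaller of these differences, such as those of NRF1 and TFB2M, are not read as changes. The coactivator PPARGC1A read 12.2, 14.3, 23.0 and 26.8 and its relative PPARGC1B 39.1, 52.7, 57.6 and 88.6, log2 ratios of 1.13 and 1.18 for E9 over E6. The mitochondrial DNA polymerase POLG read 14.4, 18.4, 10.6 and 15.1, higher at E7 and lowest at E8 as most members were. NRF1 read 54.9, 52.3, 44.9 and 49.6, GABPA 48.7, 45.1, 40.2 and 41.1, TFAM 6.27, 8.32, 6.17 and 6.19, TFB1M 13.7, 9.48, 11.4 and 11.5, and TFB2M 9.08, 9.84, 9.35 and 8.51.

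Cells were gated by 8 markers for each of 9 types. A cell entered a gate with at least 3 markers of a list and at least 2 more than of any other list. The gates took 6392 cells, of which 3042 sat at the edge of the rule, and 4264 other cells missed a gate by 1 marker. The microglial and erythroid gates held under 50 cells each and were left out, and 3 markers (PAX8, GATA1 and MKI67) were not found among the gene symbols. Types are called by their marker list, as Purkinje-like and so on, and each gate is a range of marker counts that favours deep cells. Among the 10 genes highest by fold in a gate, the glutamatergic nuclear and mural gates had 3 of their own markers, the granule gate 2, the Purkinje and GABAergic gates 1, and the radial progenitor and endothelial gates 0. None had a marker of another list there. The endothelial gate was led by VWF, MMRN2 and ABCB1 among others, which are known endothelial genes, and the radial progenitor name rests on its markers alone.

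The summed members were at 1023 CPM in 3660 radial progenitor-like cells, 979 in 239 granule-lineage-like cells, 939 in 272 GABAergic interneuron-like cells, 918 in 1771 Purkinje-like cells, 902 in 230 glutamatergic nuclear-like cells, 870 in 51 mural-like cells and 769 in 116 endothelium-like cells. The 8798 ungated cells were at 966. These values pool stages that differ in the members' sum, the types take different shares of their cells from each stage, and the order is not one of types alone. Within E7 the radial progenitor-like cells were at 1091, the granule-lineage-like at 1062, the glutamatergic nuclear-like at 1023, the GABAergic interneuron-like at 997 and the Purkinje-like at 972. Within E8 the radial progenitor-like cells were at 859, the endothelium-like at 642 (591 to 695) and the Purkinje-like at 617 (566 to 672), so the last 2 overlapped. The log2 range over pooled types was 0.41, and it was 0.84 with median-of-ratios scaling and 0.26 in cells of 2000 to 8000 UMIs. As log2 ratios over all other cells the extremes were 0.11 for the radial progenitor-like and -0.34 (-0.40 to -0.27) for the endothelium-like cells. Of 76 members, 3 were higher and 0 lower in radial progenitor-like cells, beside 19.2% and 17.7% of all genes, and 0 were higher and 5 lower in Purkinje-like cells, beside 6.37% and 26.4%.

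The members higher in radial progenitor-like cells were the accessory subunit NDUFA1 at 0.71, COX7B at 0.72 and ATP5S at 0.88. Those lower in Purkinje-like cells included the accessory subunits NDUFS6 at -0.75 and NDUFB3 at -0.70. NDUFA9 was at 86.4 CPM in Purkinje-like and 68.5 in radial progenitor-like cells, and SDHA at 28.2 and 42.8. The smaller types had more members past the fold, at 8 higher and 21 lower in granule-lineage-like cells (14.2% and 25.6% of all genes), 7 and 13 in GABAergic interneuron-like cells (11.3% and 26.2%), 6 and 22 in glutamatergic nuclear-like cells (14.4% and 25.7%) and 36 and 12 in mural-like cells (46.6% and 23.5%). In these types many members rest on few UMIs. The members with the widest range over types were NDUFAF8, NDUFB2, UQCRQ, NDUFAF5, ATP5S and NDUFAF3. In mural-like cells, where all but NDUFAF5 of these were highest once raised to the floor, they had 0 to 3 UMIs.

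**Figure D5:**
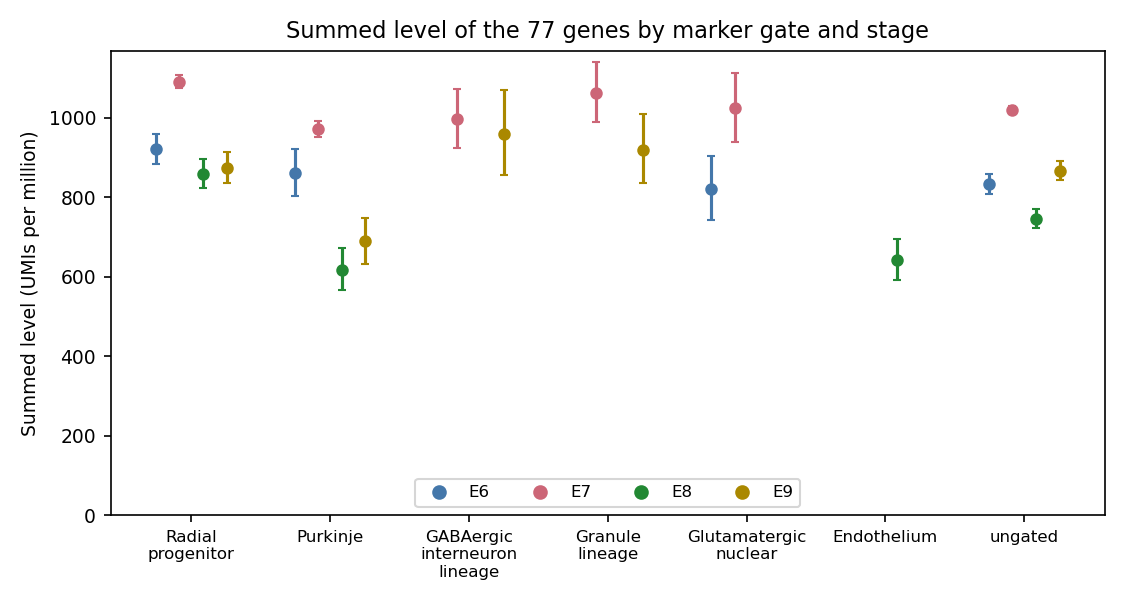
Summed level of the 77 members in CPM by gated type and stage, for sets of at least 50 cells, with 95% Poisson intervals. E7 is the highest stage in the Purkinje-like (972) and radial progenitor-like (1091) cells, and in both E8 is the lowest (617 and 859).

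The summed members had the same highest and lowest stage within the 2 large gates. Purkinje-like cells read 860, 972, 617 and 689 CPM from E6 to E9, radial progenitor-like cells 920, 1091, 859 and 874 and ungated cells 833, 1019, 746 and 867. In Purkinje-like cells E7 over E6 was 0.18, with 4 of 30 members (13.3%) higher and 1 lower (24.1% and 7.58% of all genes), and E8 over E7 was -0.65 (-0.78 to -0.53), with 1 higher and 18 lower (8.52% and 40.2%). In radial progenitor-like cells E7 over E6 was 0.25, with 14 of 47 higher and 1 lower (21.9% and 6.17%), and E8 over E7 was -0.34, with 2 higher and 16 lower (7.79% and 27.8%). The median of all genes for E7 over E6 was 0.15 in both types, beside 0.18 and 0.25 for the members' sums. For E8 over E7 the median of all genes was -0.41 in Purkinje-like and -0.22 in radial progenitor-like cells. A median over single genes and a ratio of sums are unlike measures, here and in the next paragraph.

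At every stage the summed members were lower in Purkinje-like than in radial progenitor-like cells, by log2 ratios of -0.10, -0.17, -0.48 and -0.34 in stage order. The medians of all genes in these comparisons were -0.24, -0.23, -0.41 and -0.44. At E7, the deepest stage, 0 of 58 members were higher and 7 lower in Purkinje-like cells, beside 13.6% and 29.4% of all genes. Those 7 were NDUFS6 at -1.06, NDUFB3, NDUFAF4, SDHD, SDHA at -0.64, COX7B and ATP5I. From E6 to E9 the sum stood at -0.32 in Purkinje-like and -0.07 in radial progenitor-like cells, beside medians of all genes of -0.26 and -0.04, and the difference between these was not tested.

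Within the radial progenitor-like cells, 1528 cells with at least 2 mitotic markers and 2132 others were compared. The summed members differed by 0.05 (0.01 to 0.08) over all stages and by -0.0001 within E7. Of 49 members 3 were higher and 0 lower, beside 5.22% and 2.17% of all genes. They were ATP5H at 0.73 and the assembly factors SDHAF2 at 0.75 and NDUFAF4 at 0.83. The mitotic cells were deeper, with median UMIs of 5619 against 3525.

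The endothelium-like cells, pooled over stages as above, differed from the rest by complex. Complex I was lower, with a log2 ratio of -0.81 and 20 of 38 members below and 5 above the fold, while complex V was higher, with 0.30 and 7 of 16 members above and 1 below. Over all 76 members 20 were higher and 25 lower, beside 27.8% and 38.9% of all genes. Complexes II, III and IV read -0.11, -0.11 and 0.11, the assembly factors -1.24, the mitochondrially encoded genes 0.72, the cytosolic ribosomal protein genes 0.50 and glycolysis 0.65. These values describe a small set of 116 cells, whose median of 13411 UMIs was far above that of the other cells.

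In these cells NDUFA9 was at 28.8 CPM against 76.4 in all others (-1.41), NDUFA10 at 28.8 against 72.6 (-1.34) and NDUFS4 at 19.9 against 46.2 (-1.22). NDUFAF2 was at 12.7 against 33.8 and NDUFAF5 at 1.27, on 3 UMIs, against 16.2. Above the rest were ATP5B at 55.9 against 30.4 (0.88) and COX4I1 at 18.2 against 8.16 (1.16). The hinge protein gene UQCRHL of complex III, named after its value was seen, was at 14.4 against 3.05 (2.24).

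Gene span went with these values too. Endothelium-like members under 3 kb had a median log2 ratio of 0.08, those of 3 to 10 kb -0.16, those of 10 to 30 kb -0.73 and those above 30 kb -1.28. All genes of these classes had 0.25, 0.03, -0.16 and -0.47. The members thus lay below the genes of their own span class in each class, by the most in the longest class, and what part span or cell type had in this was not tested.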

How the data were processed

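The deposited data were 1 matrix of UMI counts per cell and gene beside tables describing the cells and the genes of both sublibraries. The submitters' processing notes name the build GRCg7b, and how the submitters counted is not stated in the sources used here. Summed counts equalled the transcript counts of the cell table in 100% of cells. Stage and first-round well came from the cell table, sublibrary came from the barcode, and other columns of per-sample values numbered 0. The members and lists, the gates and the comparisons were chosen with earlier results of these data known.

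Counts were summed over cells and divided by all UMIs of those cells, with exact 95% Poisson intervals. Log2 ratios had intervals from the exact split of the 2 counts, and levels under 3 counts are near the floor of a library. A gene counted as higher or lower past a fold of 1.5 with at least 100 UMIs over both sets, and gates and sets under 50 cells were left out. No test was made, since each stage was 1 pool. The fold rule and the intervals were tested on simulated counts.

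The genes named by rule were the 2 members with the most UMIs in each complex, the 6 highest and 6 lowest ratios of E9 over E6, the 6 widest ranges over types, sex-linked members, paralogs and regulators. The values of 1 member are in the sums and counts but are not reported singly here. Gene spans came from RefSeq by symbol. Figures were drawn with matplotlib 3.10.9, tables were handled with pandas 2.3.3, and scipy 1.17.1 gave the intervals, under numpy 2.4.6 and Python 3.11.15.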

Additional observations from a re-analysis of the deposited data

Results flagged for a closer look

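In 4 cases both sublibraries placed a member on one side of 0 in Purkinje-like cells and on the other side in radial progenitor-like cells. The difference between the types was not tested in any of them, the sublibraries are technical splits of 1 pool per stage, and over both sublibraries the counting interval in Purkinje-like cells spanned 0 in all 4. The number of members and comparisons searched for such cases is not given here, nor is the share of all genes meeting the same rule. The 4 cases were picked by their signs and are not read against a background. SDHA, the flavoprotein of complex II, had log2 ratios of E7 over E6 of -0.056 and -0.28 in Purkinje-like cells of sublibraries 1 and 2 (together -0.19, -0.72 to 0.39), and of 0.61 and 0.43 in radial progenitor-like cells. The complex I assembly factor NDUFAF1 had ratios of E8 over E7 of 0.069 and 0.41 in Purkinje-like cells (together 0.23, -0.51 to 0.90) and of -0.64 and -0.50 in radial progenitor-like cells. NDUFA9, the accessory subunit with the most UMIs of the complex, had ratios of E9 over E6 of -0.12 and -0.51 in Purkinje-like cells (together -0.32, -0.88 to 0.22) and of 0.043 and 0.22 in radial progenitor-like cells (together 0.12, -0.21 to 0.45, which also spans 0). NDUFS4, the Z-linked accessory subunit, had ratios of E9 over E6 of -1.09 and -0.072 in Purkinje-like cells (together -0.52, -1.13 to 0.074) and of 0.58 and 0.67 in radial progenitor-like cells.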

How the results depend on the processing

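The sum of the members was above 0 for E7 over E6 and below 0 for E8 over E7 under all 10 alternatives tried for each. For E7 over E6 (0.26) the ratio moved to 0.20 with median-of-ratios scaling, 0.31 with subunits only and 0.32 without Z and W members. For E8 over E7 (-0.45) it moved to -0.47 without the 50 most abundant and the mitochondrial genes in the total, -0.31 with median-of-ratios scaling, -0.40 as the mean share per cell, -0.42 in cells of 2000 to 8000 UMIs, -0.37 with cells thinned to 1000 UMIs, -0.50 with subunits only, -0.59 without Z and W members and -0.48 against E7 cells without W transcripts. For E9 over E6 (-0.003) it was -0.32 in Purkinje-like cells alone and -0.19 with Purkinje-like and radial progenitor-like cells weighted equally. The range over types (0.41) was 0.84 with median-of-ratios scaling and 0.26 in cells of 2000 to 8000 UMIs.

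In the counts that follow, the number testable and the share of all genes past the same fold stand in brackets. The members higher at E7 than at E6, 25 (of 74, 22.4%), became 16 in cells of 2000 to 8000 UMIs (of 60, 20.3%), 6 after thinning (of 31, 18.6%), 45 with a smaller fold (of 74, 38.7%), 11 with a fold of 2 (of 74, 9.44%) and 15 in E7 cells without W transcripts (of 57, 17.9%). After thinning the members' share was therefore near that of all genes. The members lower at E8 than at E7, 42 (of 75, 27.3%), became 13 after thinning (of 31, 26.4%) and 18 with a fold of 2 (of 75, 12.1%). The members higher at E9 than at E6, 2 (of 42, 20.7%), became 0 in cells of 2000 to 8000 UMIs (of 31, 19.4%) and in cells of 4000 UMIs or more (of 27, 19.4%). They became 1 after thinning (of 13, 16.5%), with subunits only (of 35, 20.7%), without Z and W members (of 37, 20.7%) and with a fold of 2 (of 42, 12.2%). They became 6 with a smaller fold (of 42, 31.0%), 10 with a minimum of 20 UMIs (of 72, 26.8%) and 13 with none (of 77, 30.5%). The members lower, 2 (of 42, 10.0%), became 4 by mean share (of 42, 10.2%) and in cells of 2000 to 8000 UMIs (of 31, 10.4%), 0 after thinning (of 13, 11.6%) and with a fold of 2 (of 42, 3.6%), and 1 with subunits only (of 35, 10.0%). They became 5 with a minimum of 20 UMIs (of 72, 11.3%) or none (of 77, 13.7%), and 8 with a smaller fold (of 42, 20.7%). With either sublibrary left out, the higher ones numbered 0 (of 24 to 25) and the lower ones 1 to 3. At E9 and E6 the higher members had few UMIs, SDHAF4 78 and 39 and ATP5A1W 101 and 2. Over both sublibraries they were thus only just testable, and with fewer cells they can miss the UMI minimum. A count of 0 here, or in the cells chosen by depth, therefore cannot show that their higher level was lost. SDHAF4 stood at 0.47 in sublibrary 1, short of the fold, and at 1.33 in sublibrary 2, past it. For these sublibrary counts the share of all genes is not given, so they are not read against a background. Thinning kept 14910 cells and left out 280, and the cause of these moves was not tested. Of 196 alternatives for members named by rule, 30 were for members already past the fold in the main values. Those 30 gave the same direction in 30 and passed the fold in 24. These members were picked by ratios from the same data, so the shared direction is not a separate test. The remaining alternatives are not summarised here. W-transcript alternatives and those without Z and W members were chosen after seeing the data. The E7 cells without W transcripts still had ATP5A1W at 4.08 CPM, so those alternatives are not matched in sex to E6 or E8. No paired analysis was possible because each stage is 1 pool and no test was made.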
